A study of Mus musculus with 10 samples.

Results

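Mouse embryonic stem (ES) cells that stably express Prdm14 were compared with and without an added Dnmt3b1 gene, over all genes of a one-colour Agilent array. The line with both genes, called PRDM14_DNMT3B, is labelled JP-23+3b-3 and is wild type with Prdm14 and Dnmt3b1 stably expressed. The line it was set against, called PRDM14, is labelled JP-23 and is wild type with Prdm14 stably expressed, so both groups carry the Prdm14 gene. The comparison used 4 of the 10 arrays of the series, 2 from each line, chosen by their titles. J1, the wild-type line, gave 2 further arrays whose values stand beside the comparison. They also entered the estimate of the spread, as did the 2 arrays of a Dnmt3b-/- line, whereas the single Dnmt1-/- and triple knockout arrays add nothing to it. Each group is a single line, and no label says that its arrays came from separate cultures. The p-values below therefore reflect spread between arrays that may be technical. No source used here gives the promoters that drive the transgenes.

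DNA methyltransferases write 5-methylcytosine at CpG dinucleotides. DNMT3B is a de novo enzyme of the early embryo and of ES cells, DNMT3B1 is its catalytically active long isoform, and DNMT1 copies existing marks after replication. PRDM14 is a transcription regulator of the germline and of naive pluripotency, known to repress Dnmt3b and to lower DNA methylation in mouse ES cells. Genes that methylation keeps silent in somatic cells include many germline genes and the Rhox homeobox cluster. The design text states that the series asked how demethylation through PRDM14 alters expression, and the added DNMT3B1 bears on that.

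Levels below are log2 fluorescence intensities minus the 75th percentile of the same array, so 0 is the level of a probe at that percentile. Differences were tested in 1 limma fit over all 10 arrays, and a gene was called where the adjusted p (Benjamini-Hochberg) was under 0.05. Between 50.03% and 56.03% of spots per array were well above background, none was saturated, and the number of arrays limits the precision. Across 18248 genes well above background on all 10 arrays, the median absolute difference between replicate arrays was 0.136 in PRDM14_DNMT3B and 0.113 in PRDM14. The median absolute difference between the group means was 0.243. The share of these genes over 2-fold apart was 0.723% between replicates of PRDM14_DNMT3B, 0.175% between those of PRDM14 and 5.20% between the means. The PRDM14_DNMT3B arrays lay on slides 1 and 2, with J1 on the same slides, and those of PRDM14 lay alone on slides 3 and 4. For every difference below, the slide and the line cannot be told apart, and no value within a slide exists. All 10 core pluripotency genes listed, among them Pou5f1, Sox2 and Nanog, were well above background on all 4 arrays, as the ES cell label implies. In bulk RNA, fewer cells of a type and less RNA per cell cannot be told apart.

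Neither labelled transgene was seen as a higher signal in PRDM14_DNMT3B. Dnmt3b measured 4.09 and 4.17 in PRDM14_DNMT3B, against 5.0 and 5.05 in PRDM14, a log2 difference of -0.89 ± 0.08 (SE, adjusted p = 0.00199). The groups did not overlap, and both lay under J1, at 7.6 and 7.57. All 3 Dnmt3b probes were lower in PRDM14_DNMT3B, by log2 differences of -0.37, -0.75 and -0.89, and the last stands for the gene. They start at bases 2950, 3843 and 4255 of the transcript and lie on chromosome 2 between 153512098 and 153513462 of mm9. Prdm14 was not well above background in PRDM14_DNMT3B, at -6.35 and -6.42, against -4.32 and -4.02 in PRDM14, and J1 read -0.08 and 0.09. That makes Prdm14 at least 1.55-fold lower in PRDM14_DNMT3B (adjusted p = 0.000778). Such a bound sets the bright group's mean against the lowest signal well above background, or the dim probe's own where that was higher. The Prdm14 probe starts at base 2487 of the transcript. No source used here says whether these probes can read the introduced genes. Overexpression was therefore not measured, and PRDM14_DNMT3B and PRDM14 mean the arrays so labelled throughout.

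Among 9 tested methyltransferases and cofactors, Dnmt3b included, 1 rose and 3 fell, where 20.8% of all genes were called. Of these, 0 rose and 1 to 2 fell without 1 of the 4 arrays. Dnmt3a, the second de novo enzyme, measured -0.36 and -0.49 in PRDM14_DNMT3B, against 0.09 and 0.15 in PRDM14, a log2 difference of -0.55 ± 0.10 (SE, adjusted p = 0.0144). Its call was lost without PRDM14_DNMT3B replicate 2, at -0.48 (adjusted p = 0.0733), without PRDM14 replicate 1, at -0.58 (adjusted p = 0.0669), and without PRDM14 replicate 2, at -0.51 (adjusted p = 0.0818). Dnmt1 gave 1.83 and 1.66 in PRDM14_DNMT3B, against 1.5 and 1.32 in PRDM14, and its difference of 0.34 did not pass (adjusted p = 0.182). Dnmt3l, the catalytically inactive partner of the de novo enzymes, differed by -0.06 and Uhrf1, which guides DNMT1 to hemimethylated DNA, by -0.21, neither past the test. Trdmt1, a tRNA methyltransferase, was lower by a log2 difference of -0.58 and Uhrf2, a relative of Uhrf1, was higher by 0.29. Both of these calls were lost with any 1 of the 4 arrays left out, with adjusted p of 0.0776 to 0.114 for Trdmt1 and 0.129 to 0.18 for Uhrf2.

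Over the whole array, 23807 genes were tested and 4949 (20.8%) were called, 2331 (9.79%) higher and 2618 (11%) lower in PRDM14_DNMT3B. Of these, 1514 (6.36%) also differed more than 2-fold, 803 higher and 711 lower. At an unadjusted p under 0.05 there were 8448 genes. With another background correction, normexp, 476 genes were called beyond 2-fold, and with dim probes kept in, 2993 genes were called. In all 4949 called genes the arrays of the 2 lines did not overlap, which held for 15439 (64.9%) of all genes tested. The median difference over all tested genes was -0.02, so list medians below are read against that value. The count depended on every array. It was 2722 without PRDM14_DNMT3B replicate 1, 2565 without PRDM14_DNMT3B replicate 2, 1909 without PRDM14 replicate 1 and 2022 without PRDM14 replicate 2, between 8.02% and 11.4% of genes. Of the called genes, 4302 were well above background on all 4 arrays and 126 on none, 97 of those higher. The 1348 tested genes dim on all 4 arrays had a median difference of 0.38, so a called gene that was dim in both lines is given no fold.

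**Figure D1:**
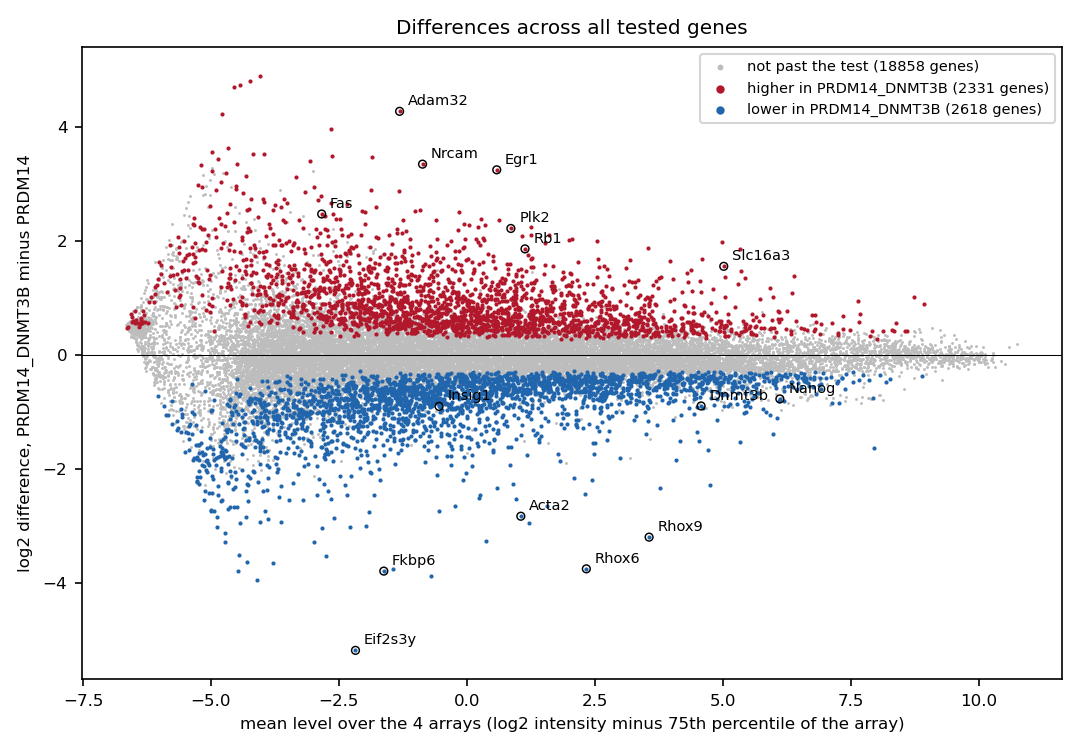
Each point is 1 of 23807 tested genes, with the mean level over the 4 arrays on the x axis (log2 intensity minus the 75th percentile of the array) and the log2 difference, PRDM14_DNMT3B minus PRDM14, on the y axis. Red points (2331 genes) and blue points (2618 genes) passed the test as higher and lower in PRDM14_DNMT3B. Some of the genes named in the text are circled, among them Adam32 at 4.28 and Rhox6 at -3.75. The spread of the points widens at low levels.

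The largest rises among genes measured on all 4 arrays included a protease relative, an adhesion molecule and stress-response factors. Adam32, a testis-expressed member of the ADAM metalloprotease family (probe at chr8:25946632-25946691, mm9), measured 0.88 and 0.77 in PRDM14_DNMT3B, against -3.75 and -3.16 in PRDM14, a log2 difference of 4.28 ± 0.40 (SE, adjusted p = 0.00225). The groups were 19.4-fold apart, and J1 was not well above background, at -5.09 and -5.85. Nrcam, a neuronal cell adhesion molecule, measured 0.74 and 0.88 in PRDM14_DNMT3B, against -2.63 and -2.45 in PRDM14, a log2 difference of 3.35 ± 0.16 (SE, adjusted p = 0.00063). Egr1, an immediate early zinc finger factor, measured 2.17 and 2.25 in PRDM14_DNMT3B, against -0.99 and -1.09 in PRDM14, a log2 difference of 3.25 ± 0.10 (SE, adjusted p = 0.000393). Both genes were higher in PRDM14_DNMT3B than in J1, which had -1.29 and -1.26 for Nrcam and 1.42 and 1.51 for Egr1. Alox5, the first enzyme of leukotriene synthesis, rose by 2.90 and Ces2e, a carboxylesterase, by 2.80 on the log2 scale. Tnfaip6, a secreted hyaluronan-binding protein, rose by 2.67, and Cd109, a membrane-anchored inhibitor of TGF-beta signalling, by 2.66. Nfatc2, a calcineurin-dependent transcription factor, rose by 2.55, and Lor, the cornified envelope protein loricrin, by 2.53. Vopp1 (2.88), Apol8 (2.60), D19Ertd652e (2.53), Prl2c1 (2.52), Atf3 (2.48) and Fas (2.48) completed the 15 largest rises. Prl2c1 belongs to a family of near-identical prolactin-like genes, so its probe may also read relatives.

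Among genes measured on all 4 arrays, the deepest falls were those of Fkbp6, Fmr1nb and Rhox6. Fkbp6, an FK506-binding protein needed for meiosis and the piRNA pathway in the mouse testis (probe at chr5:135815357-135815416, mm9), measured -3.51 and -3.52 in PRDM14_DNMT3B, against 0.27 and 0.27 in PRDM14, a log2 difference of -3.79 ± 0.16 (SE, adjusted p = 0.000594). It was 13.8-fold lower in PRDM14_DNMT3B, and J1 read -3.54 and -3.83. Fmr1nb, an X-linked testis-expressed gene beside Fmr1, measured -3.22 and -3.44 in PRDM14_DNMT3B, against 0.39 and 0.48 in PRDM14, a log2 difference of -3.76 ± 0.12 (SE, adjusted p = 0.000393). Rhox6, a homeobox gene of the X-linked reproductive cluster (probe at chrX:35182945-35183004, mm9), measured 0.61 and 0.31 in PRDM14_DNMT3B, against 4.36 and 4.07 in PRDM14, a log2 difference of -3.75 ± 0.16 (SE, adjusted p = 0.000594). For Fmr1nb and Rhox6 the PRDM14_DNMT3B arrays lay under J1, which had -0.74 and -0.52 for Fmr1nb and 2.53 and 2.34 for Rhox6, and the PRDM14 arrays lay above it. Acta2, smooth muscle actin, measured -0.33 and -0.39 in PRDM14_DNMT3B, against 2.42 and 2.52 in PRDM14, with J1 at 1.01 and 1.00. Tspan1, a tetraspanin, fell by 2.95, Bcl2l14, a BCL2 family member, fell by 2.74, and Catsperz, a subunit of the sperm calcium channel, fell by 2.53 on the log2 scale. Prkch, a protein kinase C, fell by 2.45, Tnfrsf25, a death receptor, fell by 2.45, and Osta, a subunit of a steroid and bile acid transporter, fell by 2.45. The remaining genes of the 15 largest falls were Arl14epl (-3.26), Rhox9 (-3.20), Ptprcap (-2.65), Zfp951 (-2.50) and Rab3il1 (-2.44). These 30 genes were picked as the largest differences among called genes. Each kept its direction with any 1 of the 4 arrays left out. Those fits reuse the arrays that picked the genes, so they give no separate support.

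**Figure D2:**
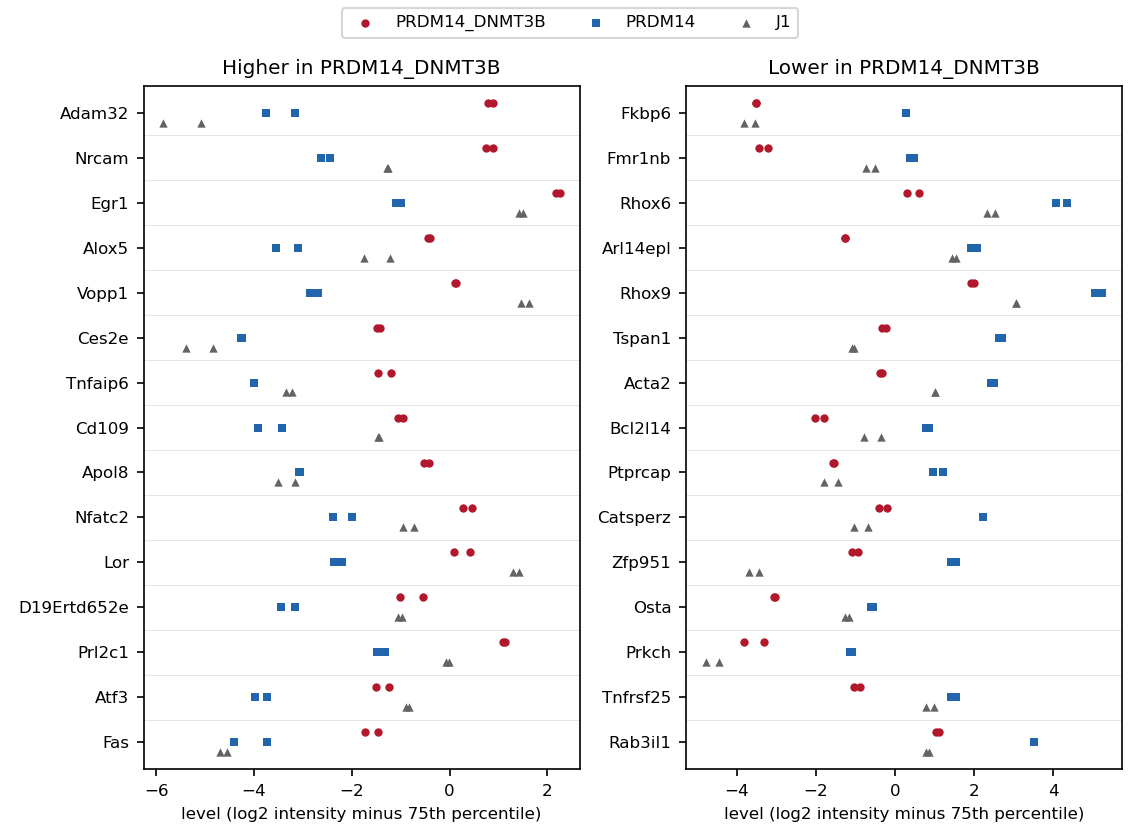
Level per array (x axis, log2 intensity minus the 75th percentile of the array) for the 15 genes with the largest rises (left) and the 15 with the largest falls (right), with 1 point per array for PRDM14_DNMT3B (red circles), PRDM14 (blue squares) and J1 (grey triangles). Red and blue points do not overlap for any gene shown, while J1 lies on either side of them.

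Some genes were measured in only 1 of the lines, and their folds are lower bounds. Among the 4949 called genes, 112 such genes were higher and 283 lower in PRDM14_DNMT3B. Spots well above background were more frequent on the PRDM14 arrays, 55.5% and 56.0%, than on those of PRDM14_DNMT3B, 52.1% and 51.2%. Genes measured in only 1 line but not called were not counted, so the 2 counts are not read against each other. Btla, an inhibitory receptor of lymphocytes, was at least 14.8-fold higher, Ttc41 at least 7.93-fold and Itga8, an integrin subunit, at least 7.78-fold. Gabra3, a GABA receptor subunit, was at least 7.04-fold higher, and Krt33a, a hair keratin, and Olfr1196, an olfactory receptor, were each at least 5.25-fold higher. Neither Krt33a, at -6.51 and -6.06, nor Olfr1196, at -6.59 and -6.23, was well above background in J1. Genes measured in only 1 of the lines can have entered the test through that line alone. Their rises, and the falls below, are therefore description only. Krt33a lost its call without PRDM14_DNMT3B replicate 1, at 3.56 (adjusted p = 0.0615), and without PRDM14_DNMT3B replicate 2, at 3.50 (adjusted p = 0.0662). Olfr1196 measured -3.18 and -1.20 in PRDM14_DNMT3B, against -6.87 and -6.94 in PRDM14, with its PRDM14_DNMT3B arrays far apart, and its fitted difference was 5.70 (adjusted p = 0.00636) without PRDM14_DNMT3B replicate 1 and 3.72 (adjusted p = 0.0074) without PRDM14_DNMT3B replicate 2. In the other direction, Eif2s3y, a Y-linked translation initiation factor, was at least 34.5-fold lower, Efhc2 at least 7.19-fold, Pramel6, a preimplantation gene, at least 6.41-fold and Saa2, a serum amyloid, at least 6.21-fold. Lcp1, a leukocyte actin-bundling protein, was at least 10.3-fold lower and Ceacam10, an adhesion molecule, at least 5.8-fold. Both lost their calls without PRDM14_DNMT3B replicate 1, at -3.08 (adjusted p = 0.0537) for Lcp1 and -2.45 (adjusted p = 0.0545) for Ceacam10. The same held without PRDM14 replicate 1, at -3.36 (adjusted p = 0.0723) and -2.63 (adjusted p = 0.0597), and without PRDM14 replicate 2, at -3.70 (adjusted p = 0.0571) and -2.44 (adjusted p = 0.0672), for Lcp1 and Ceacam10 in that order.

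To describe groups of genes, 52 lists were counted, each read against the 20.8% of all genes that were called. In 43 of the 52 the share called lay above 20.8%, so a share above it marks no list. Calls among p53 targets, MHC class I genes, Hox genes, cell cycle inhibitors and immediate early genes were mostly rises. Calls among cholesterol synthesis, Rhox and 2-cell genes were mostly falls, and no ribosomal protein gene was called. With normexp background correction, which adds an offset to all signals, 10 rather than 19 lists had a median beyond 0.3 in size, that of the Hox genes was 0.41 and that of the Rhox cluster -0.37.

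**Figure D3:**
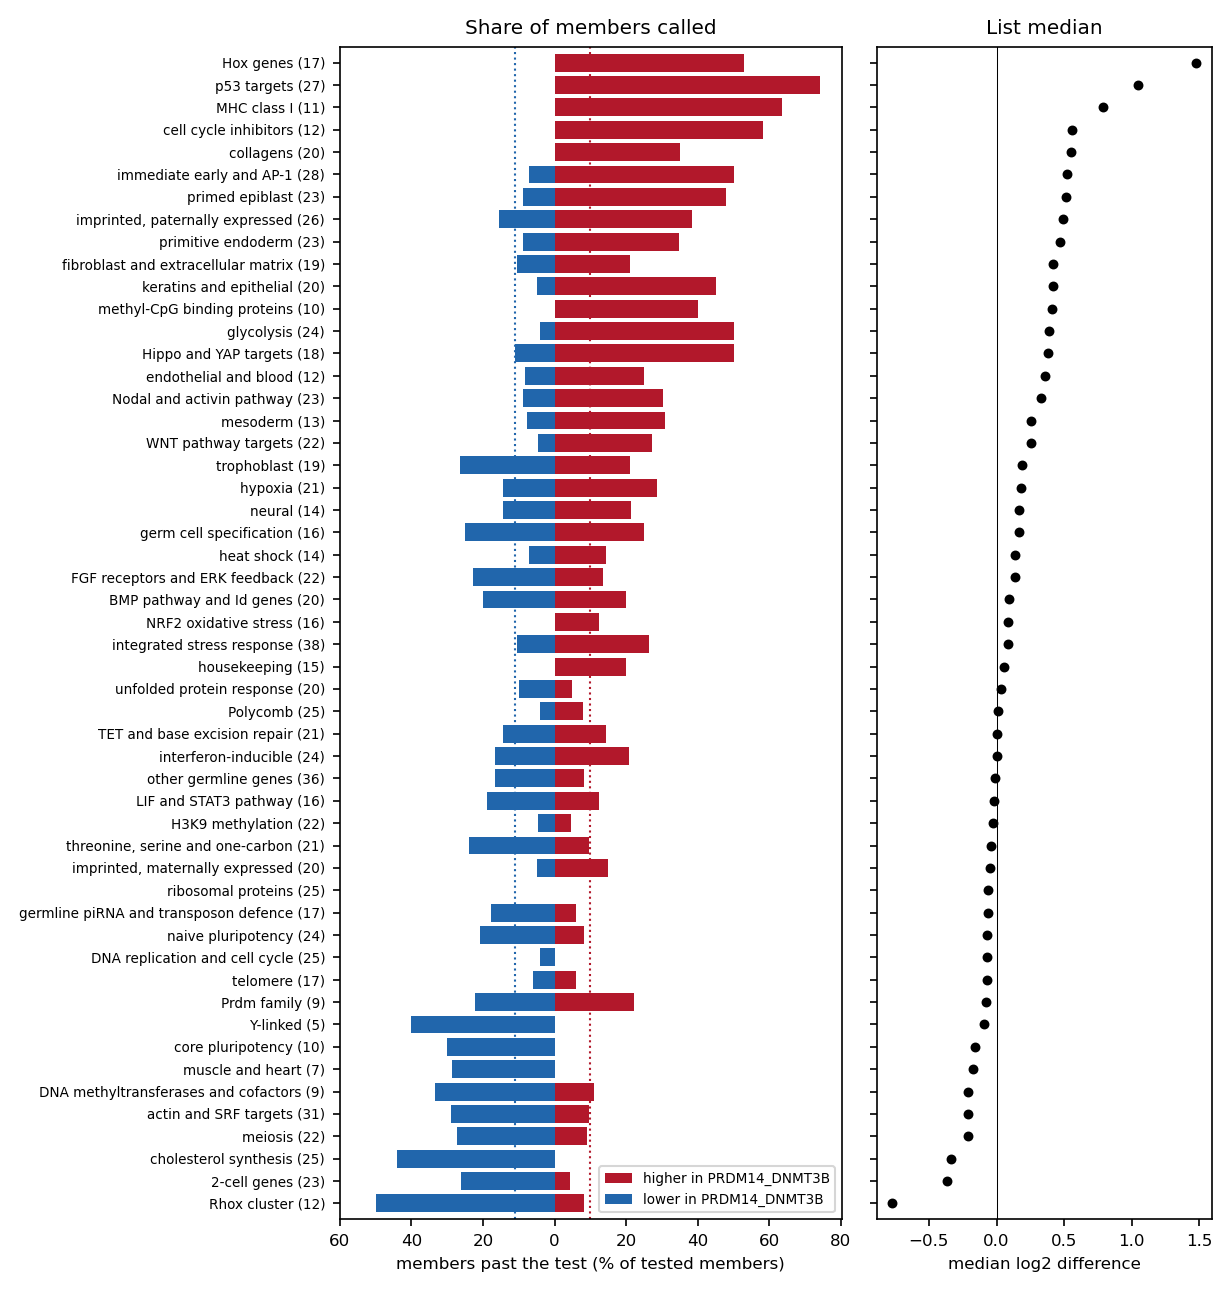
Left, share of tested members of each of 52 lists that passed the test (x axis, %), drawn to the right in red for higher and to the left in blue for lower in PRDM14_DNMT3B, with the number tested in brackets and dotted lines at the shares over all genes (9.79% higher, 11% lower). Right, median log2 difference of each list, from -0.77 in the Rhox cluster to 1.48 in the Hox genes.

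Germline lists held some of the deepest falls, though most of their members did not pass. Of 17 tested genes of the piRNA pathway and transposon defence, 1 rose and 3 fell, with a median of -0.06. Of 22 meiosis genes, 2 rose and 6 fell (median -0.21), and of 36 other germline genes 3 rose and 6 fell (median -0.01), 1 of those 3 dim in both lines. Leaving out 1 of the 4 arrays gave 2 to 3 falls for piRNA genes, 3 to 4 for meiosis genes and 3 to 5 for the others. The sequences below are shown because methylation acts at CpG sites, and they let the promoters of genes that fell be set beside that of a gene that rose. They are RefSeq promoter windows of build GRCm38.p6, from 250 bases before to 50 after the start, with each CpG in capitals. The genes are the piRNA genes Fkbp6 (chr5:135349995-135350294, minus strand, the first of 2 windows) and Gpat2 (chr2:127424949-127425248, plus strand), the meiosis gene Tex12 (chr9:50561219-50561518, minus strand), the testis cytochrome Cyct (chr2:76360404-76360703, minus strand), the homeobox gene Rhox3a (chrX:37249669-37249968, plus strand) and the stress factor Atf3 (chr1:191183284-191183583, minus strand). They were taken by size of difference from the germline, Rhox and stress lists, and Rhox6 and Rhox9 are named only.
Fkbp6: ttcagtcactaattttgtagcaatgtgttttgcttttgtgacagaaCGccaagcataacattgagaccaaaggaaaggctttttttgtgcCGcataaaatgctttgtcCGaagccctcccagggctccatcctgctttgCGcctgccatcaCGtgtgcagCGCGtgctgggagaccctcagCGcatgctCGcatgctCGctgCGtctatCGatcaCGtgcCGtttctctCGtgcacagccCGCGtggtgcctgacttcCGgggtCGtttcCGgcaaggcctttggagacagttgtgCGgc
Gpat2: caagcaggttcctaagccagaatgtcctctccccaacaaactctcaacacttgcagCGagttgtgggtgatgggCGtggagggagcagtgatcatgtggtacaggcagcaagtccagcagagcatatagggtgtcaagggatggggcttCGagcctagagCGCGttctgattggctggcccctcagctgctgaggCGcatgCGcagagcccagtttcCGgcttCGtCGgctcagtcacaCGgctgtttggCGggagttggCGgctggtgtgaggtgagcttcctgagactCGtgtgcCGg
Tex12: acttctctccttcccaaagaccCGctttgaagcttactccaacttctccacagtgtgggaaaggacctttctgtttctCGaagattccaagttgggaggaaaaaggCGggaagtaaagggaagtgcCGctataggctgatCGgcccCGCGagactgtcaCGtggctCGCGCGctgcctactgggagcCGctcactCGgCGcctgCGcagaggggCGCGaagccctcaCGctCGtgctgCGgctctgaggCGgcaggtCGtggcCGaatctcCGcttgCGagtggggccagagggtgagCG
Cyct: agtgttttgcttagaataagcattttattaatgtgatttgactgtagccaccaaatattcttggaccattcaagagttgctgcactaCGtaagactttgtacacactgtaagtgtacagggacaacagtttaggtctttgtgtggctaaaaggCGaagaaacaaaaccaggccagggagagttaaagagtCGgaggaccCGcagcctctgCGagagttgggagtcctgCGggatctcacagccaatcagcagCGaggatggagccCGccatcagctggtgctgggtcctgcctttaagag
Rhox3a: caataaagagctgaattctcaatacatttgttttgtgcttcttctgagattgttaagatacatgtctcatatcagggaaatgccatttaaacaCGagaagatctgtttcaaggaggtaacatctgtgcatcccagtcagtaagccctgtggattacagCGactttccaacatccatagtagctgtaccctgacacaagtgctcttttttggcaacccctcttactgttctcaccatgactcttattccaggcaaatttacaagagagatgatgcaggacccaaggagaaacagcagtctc
Atf3: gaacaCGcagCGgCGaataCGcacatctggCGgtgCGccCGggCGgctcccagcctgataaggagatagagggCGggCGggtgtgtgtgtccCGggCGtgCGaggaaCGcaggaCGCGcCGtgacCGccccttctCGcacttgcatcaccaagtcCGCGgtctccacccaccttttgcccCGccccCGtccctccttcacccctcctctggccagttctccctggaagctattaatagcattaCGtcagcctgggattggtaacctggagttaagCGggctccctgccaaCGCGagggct

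The 6 windows differed widely in CpG count. That of Fkbp6 held 21 CpGs, Tex12 26, Gpat2 15, Cyct 8 and Rhox3a 2, all genes that fell in PRDM14_DNMT3B, and that of Atf3, which rose, held 27. Over all 32851 windows the median was 7 CpGs, with quartiles at 3 and 20. Shares of windows with fewer CpGs were 75.2% for Fkbp6, 83.1% for Tex12, 65.4% for Gpat2, 51.4% for Cyct, 14.1% for Rhox3a and 84.5% for Atf3. Read on both strands, the E-box CACGTG stood in the windows of Fkbp6 and Tex12 and in 7.15% of all windows. An E2F6-type site, GCGGGAA, stood in that of Tex12 and in 4.6% of all. The cyclic AMP response element TGACGTCA stood in none of the 6 and in 1.79% of all. A match describes letters only. Only 51.3% of tested genes could be matched to a window, 64.4% of those higher, 47.9% of those lower and 50.2% of those not called, so the planned check of CpG content over called genes is void and is not given.

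Gpat2, a mitochondrial acyltransferase of the piRNA pathway, measured -1.26 and -1.28 in PRDM14_DNMT3B, against 0.57 and 0.75 in PRDM14, a log2 difference of -1.93 ± 0.09 (SE, adjusted p = 0.00063). Tex12, a protein of the synaptonemal complex that pairs meiotic chromosomes, was not well above background in PRDM14_DNMT3B and was at least 2.12-fold lower (adjusted p = 0.00521). Smc1b, the meiotic cohesin subunit, measured -1.80 and -1.76 in PRDM14_DNMT3B, against -0.60 and -0.55 in PRDM14, a log2 difference of -1.21 ± 0.11 (SE, adjusted p = 0.00183). J1 was at -0.32 and -0.38 for Gpat2 and -3.30 and -3.10 for Smc1b, below the PRDM14 arrays in both. Stag3, another meiotic cohesin subunit, fell by 0.67. Cyct measured -1.59 and -1.67 in PRDM14_DNMT3B, against 0.43 and 0.51 in PRDM14, and its call was lost without PRDM14_DNMT3B replicate 2, at -2.06 (adjusted p = 0.0535), without PRDM14 replicate 1, at -2.14 (adjusted p = 0.0617), and without PRDM14 replicate 2, at -2.06 (adjusted p = 0.0646). Tuba3a, a testis alpha-tubulin with a near-identical copy in Tuba3b, measured 0.96 and 0.84 in PRDM14_DNMT3B, against 2.74 and 2.76 in PRDM14.

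Some other germline genes rose or did not pass. Meioc, which maintains meiotic prophase, measured -0.65 and -0.55 in PRDM14_DNMT3B, against -1.79 and -1.87 in PRDM14, a log2 difference of 1.23 ± 0.14 (SE, adjusted p = 0.00379). Tex15, needed for transposon silencing in the mouse testis, rose by 0.95, and Tex14, a protein of germ cell bridges, by 0.62, a call lost without PRDM14 replicate 1 (adjusted p = 0.0608). Tex14 was far above J1 in both lines, with 1.63 and 1.80 in PRDM14_DNMT3B, against 1.03 and 1.15 in PRDM14 and -4.26 and -4.27 in J1. Dazl, a germ cell RNA-binding protein, differed by -0.29 (adjusted p = 0.348) and Ddx4, a germ cell helicase, by -0.25 (adjusted p = 0.308). Neither difference passed.

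**Figure D4:**
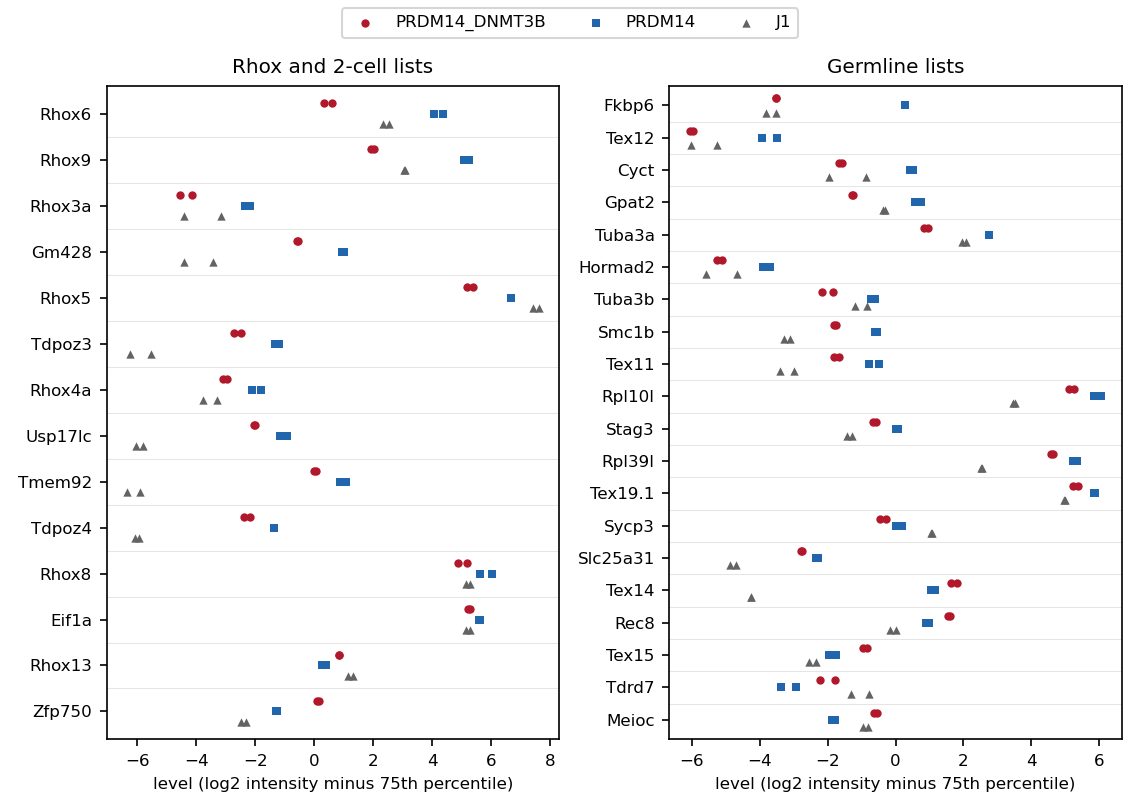
Level per array (x axis, log2 intensity minus the 75th percentile of the array) for each called member, measured in at least 1 of the lines, of the Rhox and 2-cell lists (left) and of the 3 germline lists (right), ordered from the deepest fall to the largest rise, with red circles for PRDM14_DNMT3B, blue squares for PRDM14 and grey triangles for J1. Fkbp6, at -3.51 and -3.52 in PRDM14_DNMT3B, lay beside J1 at -3.54 and -3.83, while Tex14 lay far above J1 in both lines.

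The Rhox cluster, a family of X-linked homeobox genes, was the list with the lowest median, -0.77, with 6 of 12 tested members lower and 1 higher. Rhox9 measured 2.01 and 1.92 in PRDM14_DNMT3B, against 5.25 and 5.07 in PRDM14, a log2 difference of -3.20 ± 0.10 (SE, adjusted p = 0.000393). Rhox5, the founding member, measured 5.38 and 5.20 in PRDM14_DNMT3B, against 6.68 and 6.68 in PRDM14, a log2 difference of -1.39 ± 0.12 (SE, adjusted p = 0.0017), and J1 was above both at 7.62 and 7.41. Rhox3a was at least 4.23-fold lower, Rhox4a fell by 1.07 and Rhox13 rose by 0.51. These 3 calls were lost with any 1 of the 4 arrays left out, at adjusted p of 0.0727 to 0.12 for Rhox3a, 0.0655 to 0.114 for Rhox4a and 0.063 to 0.0955 for Rhox13. Rhox8 fell by 0.81, and it stayed called without PRDM14 replicate 1 only (adjusted p = 0.036), against 0.053 to 0.115 without 1 of the others. The count of falls was 3 to 4 with any 1 array left out. Copies of Rhox2, Rhox3 and Rhox4 are near-identical, so their probes may read several genes.

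Among 23 genes of the 2-cell stage, 6 fell and 1 rose (median -0.37), and with any 1 of the 4 arrays left out 1 fell. Zscan4c, which marks the 2-cell-like state of ES cells, measured 4.05 and 4.06 in PRDM14_DNMT3B, against 4.13 and 4.24 in PRDM14, and the difference of -0.13 did not pass (adjusted p = 0.643). J1 was far lower, at -2.47 and -2.81. Usp17lc, a deubiquitinase of a multigene family, measured -2.0 and -2.05 in PRDM14_DNMT3B, against -0.94 and -1.17 in PRDM14, a log2 difference of -0.97 ± 0.13 (SE, adjusted p = 0.00649), against -5.81 and -6.05 in J1. Tdpoz3 fell by 1.35 and Gm428 fell by 1.54, and both calls were lost with any 1 of the 4 arrays left out, at adjusted p of 0.0706 to 0.113 for Tdpoz3 and 0.0937 to 0.121 for Gm428. Zfp750, a zinc finger factor of epidermal differentiation, rose by 1.41. Most genes of this list belong to multigene families whose probes may read several copies.

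Imprinted genes, which are expressed from 1 parental allele, were counted by the allele expressed, and rises outnumbered falls in both lists. Of paternally expressed genes 53.85% were called and of maternally expressed genes 20%, against 20.8% of all genes. With normexp background correction the median of the paternally expressed genes was 0.25 rather than 0.49. Of 26 paternally expressed genes tested, 10 rose, 1 of them dim in both lines, and 4 fell (median 0.49), and 4 to 6 rose with 1 of the 4 arrays left out. Sgce, a sarcoglycan, measured -1.35 and -1.37 in PRDM14_DNMT3B, against -3.51 and -3.99 in PRDM14, a log2 difference of 2.38 ± 0.17 (SE, adjusted p = 0.00101). Its neighbour Peg10, a retrotransposon-derived placental gene, measured -0.91 and -0.99 in PRDM14_DNMT3B, against -2.92 and -2.76 in PRDM14, a log2 difference of 1.89 ± 0.10 (SE, adjusted p = 0.000736). Plagl1, a zinc finger growth regulator, measured 2.91 and 3.25 in PRDM14_DNMT3B, against 0.99 and 1.10 in PRDM14, and J1 was far lower at -4.25 and -3.88. Zdbf2, an imprinted zinc finger gene, rose by 1.07, and Peg12 fell by 1.42. Of 20 maternally expressed genes 3 rose and 1 fell (median -0.05), with Grb10, a receptor adaptor, at 0.52 and 0.36 in PRDM14_DNMT3B, against -1.55 and -1.65 in PRDM14, and H19, a noncoding RNA, lower by a log2 difference of -1.17. Without 1 of the 4 arrays 2 to 4 of the maternally expressed genes rose and 0 to 2 fell, and 2 of the paternally expressed genes fell. H19 lost its call without PRDM14 replicate 1, at -1.09 (adjusted p = 0.0521).

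Hox genes, the homeobox genes of body patterning, gave the list with the highest median, 1.48, but at low signal. Of 35 Hox genes on the array 17 were tested, since a gene had to be well above background throughout 1 or more of the 6 groups. Members could thus be included because they were high in PRDM14_DNMT3B, so the median describes the tested members only. Of 17 tested members 9 rose, 1 of them dim in both lines, none fell and 7 were well above background on all 4 arrays. With 1 of the 4 arrays left out 4 to 5 rose. Hoxc6 was at least 3.4-fold and Hoxb9 at least 3.89-fold higher, neither well above background in PRDM14. Hoxd11 measured -2.72 and -2.47 in PRDM14_DNMT3B, against -4.22 and -4.12 in PRDM14, a log2 difference of 1.58 ± 0.22 (SE, adjusted p = 0.0069). Its call was lost without PRDM14 replicate 1, at 1.53, and J1 read -6.51 and -6.07. Hoxc4, at least 3.38-fold higher, lost its call with any 1 of the 4 arrays left out, at adjusted p of 0.0911 to 0.149.

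Among stress pathways, targets of p53, the transcription factor that answers DNA damage, rose most broadly. Of 27 tested targets 20 (74.1%) rose and none fell, against 9.79% higher over all genes, and the median was 1.05. Between 15 and 17 rose with 1 of the 4 arrays left out. The members that rose span receptors, apoptosis genes and feedback inhibitors. Fas, a death receptor, measured -1.73 and -1.46 in PRDM14_DNMT3B, against -4.41 and -3.74 in PRDM14, a log2 difference of 2.48 ± 0.26 (SE, adjusted p = 0.00296). Plk2, a polo-like kinase, measured 1.91 and 2.04 in PRDM14_DNMT3B, against -0.33 and -0.17 in PRDM14, a log2 difference of 2.22 ± 0.14 (SE, adjusted p = 0.00084). Perp, a membrane effector of apoptosis, measured 5.42 and 5.47 in PRDM14_DNMT3B, against 3.72 and 3.78 in PRDM14, a log2 difference of 1.69 ± 0.08 (SE, adjusted p = 0.000667). J1 was not well above background for Fas, at -4.54 and -4.69, and lay near PRDM14_DNMT3B for Perp, at 5.48 and 5.4. Mdm2, the ubiquitin ligase that restrains p53, rose by 1.18 (adjusted p = 0.0506 without PRDM14 replicate 1), and Ccng1, cyclin G1, by 1.29. Bbc3 and Pmaip1, which encode the killer proteins PUMA and NOXA, rose by 1.03 and 1.05, and Apaf1, the apoptosome scaffold, by 1.36. Ddit4l, an inhibitor of mTOR signalling, rose by 1.94, and Pidd1, a death domain protein, by 1.77. The size of the Pidd1 rise rested on the PRDM14_DNMT3B arrays, with 1.14 (adjusted p = 0.0121) without replicate 1 and 2.40 (adjusted p = 0.00549) without replicate 2. Pidd1 lost its call without PRDM14 replicate 1, at 1.80 (adjusted p = 0.117), and without PRDM14 replicate 2, at 1.75 (adjusted p = 0.121). Trp53 itself measured 2.36 and 2.45 in PRDM14_DNMT3B, against 2.53 and 2.40 in PRDM14, and its difference did not pass (adjusted p = 0.775).

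Cell cycle inhibitors rose in 7 of 12 tested genes and fell in none (median 0.56), with 4 to 5 rises when 1 of the 4 arrays was left out. Rb1, the retinoblastoma protein, measured 2.07 and 2.07 in PRDM14_DNMT3B, against 0.21 and 0.20 in PRDM14, a log2 difference of 1.86 ± 0.08 (SE, adjusted p = 0.000594), and J1 was at -0.61 and -0.60. Cdkn2b, the CDK inhibitor p15, measured -0.39 and -0.13 in PRDM14_DNMT3B, against -1.97 and -1.85 in PRDM14, a log2 difference of 1.64 ± 0.19 (SE, adjusted p = 0.00414). Cdkn1a, the CDK inhibitor p21 and also a p53 target, measured 1.95 and 1.83 in PRDM14_DNMT3B, against 0.80 and 0.61 in PRDM14. Its 2 dimmer probes read the other way, with log2 differences of -0.66 and -0.82 that did not pass, and over all 3 probes the mean difference was -0.10. Btg2, an antiproliferative p53 target, rose by 1.23. Of 25 replication and cell cycle genes 1 fell, Ccnd3, and none rose. The Ccnd3 call was lost with any 1 of the 4 arrays left out, at adjusted p of 0.0863 to 0.137.

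Immediate early and AP-1 genes, which respond within minutes to growth factors and stress, rose in 14 of 28 tested and fell in 2 (median 0.52). With 1 of the 4 arrays left out 8 to 10 rose. Atf3, a stress-induced repressor, measured -1.50 and -1.24 in PRDM14_DNMT3B, against -3.98 and -3.73 in PRDM14, a log2 difference of 2.48 ± 0.13 (SE, adjusted p = 0.000747). Fosl1, an AP-1 subunit, measured -1.96 and -1.88 in PRDM14_DNMT3B, against -3.75 and -3.95 in PRDM14, a log2 difference of 1.94 ± 0.14 (SE, adjusted p = 0.00109). Jun, the central AP-1 subunit, measured 1.87 and 1.70 in PRDM14_DNMT3B, against 0.62 and 0.48 in PRDM14, a log2 difference of 1.23 ± 0.10 (SE, adjusted p = 0.00164). J1 was above both lines for Atf3 and Jun, at -0.89 and -0.84 for Atf3 and 2.59 and 2.46 for Jun, and between them for Fosl1, at -2.63 and -2.97. Fos rose by 1.27 and Dusp2, a MAP kinase phosphatase, by 1.19, while Gadd45b, a stress sensor, fell by 0.72. Gadd45b lost its call with any 1 of the 4 arrays left out, at adjusted p of 0.0601 to 0.0841. Of 22 FGF receptors and ERK feedback genes 3 rose, Egr1 and Phlda1 (1.21) the furthest, and 5 fell, among them the phosphatase Dusp4 (-0.98) and the ERK inhibitor Spred1 (-0.77). These counts were 2 rises and 3 to 4 falls without 1 of the 4 arrays.

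Other stress lists were mixed or near the background. In the integrated stress response, 10 of 38 rose and 4 fell (median 0.09), with 4 to 6 rises and 0 to 2 falls without 1 of the 4 arrays. Atf4, the central factor of that response, measured 6.87 and 6.90 in PRDM14_DNMT3B, against 5.74 and 5.87 in PRDM14, a log2 difference of 1.08 ± 0.10 (SE, adjusted p = 0.00188). Ddit4, an mTOR inhibitor induced by stress and hypoxia, measured 5.91 and 5.93 in PRDM14_DNMT3B, against 4.68 and 4.68 in PRDM14, a log2 difference of 1.25 ± 0.07 (SE, adjusted p = 0.000804). Of 20 genes of the unfolded protein response 1 rose and 2 fell, including Xbp1 (-0.92), its transcription factor. Of 14 heat shock genes 2 rose, Hspb1 (0.71) and Hspa1a (0.94), and 1 fell, Hspa4, a call lost with any 1 of the 4 arrays left out, at adjusted p of 0.136 to 0.19. The other 2 Hspa4 probes passed the test over all probes as higher, by 0.52 (adjusted p = 0.0223) and 0.63 (adjusted p = 0.0068). Of 16 NRF2 targets 2 rose, Me1 (0.75) and Srxn1 (0.56). Hspa1a and Srxn1 lost their calls with any 1 of the 4 arrays left out, at adjusted p of 0.0657 to 0.0906 for Hspa1a and 0.0597 to 0.12 for Srxn1. In the unfolded protein response 0 to 1 rose and 1 to 2 fell without 1 array.

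Among metabolic lists, calls were mostly rises in glycolysis and falls in cholesterol synthesis. Glycolysis genes rose in 12 of 24 tested and fell in 1 (median 0.39), and 5 to 7 rose with 1 of the 4 arrays left out. Slc16a3, the lactate exporter MCT4, measured 5.87 and 5.73 in PRDM14_DNMT3B, against 4.19 and 4.29 in PRDM14, a log2 difference of 1.56 ± 0.10 (SE, adjusted p = 0.000968). Tpi1, triosephosphate isomerase, measured 6.23 and 6.22 in PRDM14_DNMT3B, against 5.27 and 5.21 in PRDM14, a log2 difference of 0.98 ± 0.08 (SE, adjusted p = 0.00162). Pfkfb3, which makes the activator of phosphofructokinase, rose by 0.92, and Pfkl, liver phosphofructokinase, by 0.91, whereas Gapdh differed by 0.17 (adjusted p = 0.459). Of 21 hypoxia genes 6 rose and 3 fell (median 0.18), with Plod2, a collagen lysyl hydroxylase, at 1.73 and 1.81 in PRDM14_DNMT3B, against 0.32 and 0.43 in PRDM14, and Bnip3, a mitophagy receptor, higher by 1.11. Hypoxia genes gave 5 rises and 1 fall without 1 of the 4 arrays.

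Cholesterol synthesis genes fell in 11 of 25 tested and rose in none (median -0.34), with 3 to 7 falls when 1 of the 4 arrays was left out. Insig1, a sterol-responsive brake on SREBP processing, measured -0.93 and -1.05 in PRDM14_DNMT3B, against -0.06 and -0.13 in PRDM14, a log2 difference of -0.90 ± 0.12 (SE, adjusted p = 0.00602). Sqle, squalene epoxidase, measured 3.67 and 3.58 in PRDM14_DNMT3B, against 4.37 and 4.50 in PRDM14, a log2 difference of -0.81 ± 0.09 (SE, adjusted p = 0.00404). Ebp, a sterol isomerase, measured 4.13 and 3.97 in PRDM14_DNMT3B, against 4.85 and 4.78 in PRDM14, a log2 difference of -0.76 ± 0.10 (SE, adjusted p = 0.00536). J1 was at 0.18 and -0.06 for Insig1, 4.91 and 4.81 for Sqle and 4.51 and 4.44 for Ebp, so the PRDM14_DNMT3B arrays were the lowest of the 3 lines in each. Srebf2, the controlling transcription factor, differed by -0.17 (adjusted p = 0.269). In threonine, serine and one-carbon metabolism 2 of 21 rose and 5 fell (median -0.04), and 1 to 2 fell with 1 of the 4 arrays left out. Gldc, of the glycine cleavage system, measured 3.72 and 3.60 in PRDM14_DNMT3B, against 4.79 and 4.65 in PRDM14, and Cbs, cystathionine beta-synthase, rose by 0.98.

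**Figure D5:**
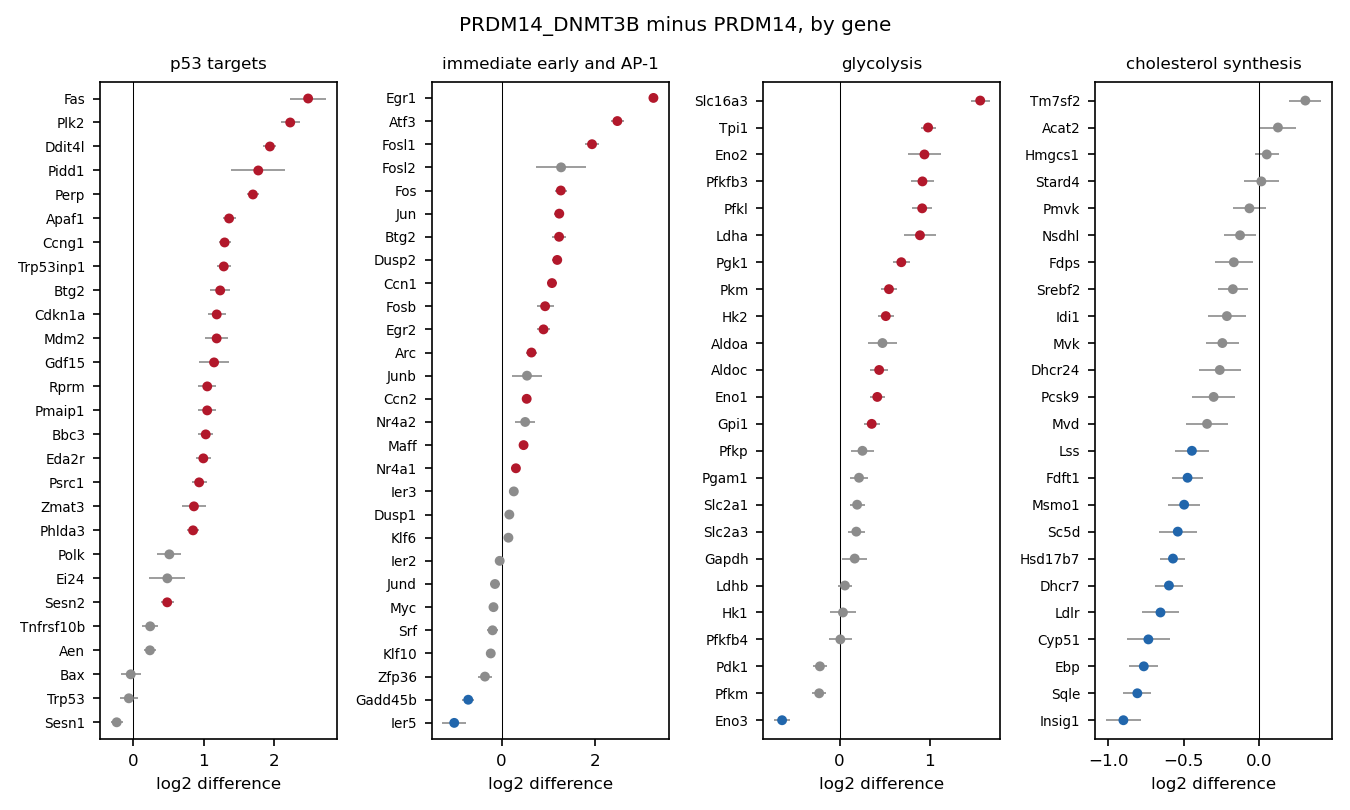
Log2 difference, PRDM14_DNMT3B minus PRDM14 (x axis), of tested members of the p53 target, immediate early, glycolysis and cholesterol synthesis lists, with bars for the SE of the fit. Red and blue points passed the test as higher and lower, and grey points did not. In the p53 list 20 of 27 points are red and none is blue, and in the cholesterol list 11 are blue and none is red.

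Most pluripotency genes did not pass the test, and those that passed mostly fell. Of 10 core genes 3 fell and none rose (median -0.16), and of 24 naive genes 5 fell and 2 rose (median -0.07). The shares called were 30% and 29.2%, against 20.8% of all genes, a share that 43 of the 52 lists exceeded. Nanog is counted in both lists. The naive falls also include Prdm14, whose probe is not known to read the introduced gene. Prdm14 counts again among the germ cell specification genes below. Without 1 of the 4 arrays 1 to 2 core genes fell, while 3 to 4 naive genes fell and 0 to 1 rose. Nanog, a factor of the pluripotency network, measured 5.73 and 5.73 in PRDM14_DNMT3B, against 6.41 and 6.59 in PRDM14, a log2 difference of -0.77 ± 0.09 (SE, adjusted p = 0.00441). J1 was at 5.91 and 5.95. A dimmer Nanog probe read 0.42 higher and did not pass (adjusted p = 0.257), and over both probes the call was lost. Utf1, a chromatin factor of ES cells, fell by 0.60, and its call was lost without PRDM14 replicate 1, at -0.58 (adjusted p = 0.053). Pou5f1 differed by 0.25 (adjusted p = 0.12), Sox2 by 0.41 (adjusted p = 0.0766), Klf4 by -0.14 (adjusted p = 0.421) and Esrrb by 0.05 (adjusted p = 0.729). Pecam1, an adhesion molecule, fell by 0.89. Germ cell specification held 4 rises and 4 falls among 16 genes, with 1 to 2 rises and 3 falls without 1 of the 4 arrays. Nanos3, an RNA-binding protein of primordial germ cells, measured 2.87 and 2.75 in PRDM14_DNMT3B, against 4.22 and 4.17 in PRDM14, a log2 difference of -1.38 ± 0.09 (SE, adjusted p = 0.00097), with J1 at 1.16 and 1.15. Ifitm3, a surface protein of early germ cells, measured 5.4 and 5.38 in PRDM14_DNMT3B, against 4.31 and 4.16 in PRDM14, a log2 difference of 1.16 ± 0.09 (SE, adjusted p = 0.0014). Tfap2c, a germ cell specification factor, fell by 0.70.

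Genes of the primed epiblast, the stage after naive pluripotency, rose in 11 of 23 tested, 1 of them dim in both lines, and fell in 2, Dnmt3a and Dnmt3b (median 0.51). With 1 of the 4 arrays left out 7 to 10 rose. Sall2, a zinc finger factor, measured 0.98 and 1.04 in PRDM14_DNMT3B, against -0.12 and -0.18 in PRDM14, a log2 difference of 1.16 ± 0.08 (SE, adjusted p = 0.00109). Nodal, a TGF-beta ligand of the epiblast, measured 4.63 and 4.46 in PRDM14_DNMT3B, against 3.60 and 3.53 in PRDM14, a log2 difference of 0.98 ± 0.11 (SE, adjusted p = 0.00406). Otx2, a homeobox factor of the transition to primed pluripotency, measured 3.61 and 3.48 in PRDM14_DNMT3B, against 2.63 and 2.70 in PRDM14, a log2 difference of 0.88 ± 0.09 (SE, adjusted p = 0.00286). Fgf5, the usual epiblast marker, measured -1.59 and -1.75 in PRDM14_DNMT3B, against -2.47 and -2.13 in PRDM14, both far under the 1.74 and 1.95 of J1. Its rise was lost with any 1 of the 4 arrays left out, at adjusted p of 0.0517 to 0.155. Sox3, a SOX factor of the epiblast and neural plate, rose by 0.94.

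Signalling lists were called in 31.2% to 40% of their members. Of 23 genes of the Nodal and activin pathway 7 rose, 2 of them dim in both lines, and 2 fell. Fst, the activin antagonist follistatin, measured 0.23 and 0.55 in PRDM14_DNMT3B, against -1.34 and -1.28 in PRDM14, whereas Inhbb, an activin subunit, fell and measured -0.47 and -0.37 in PRDM14_DNMT3B, against 0.96 and 0.99 in PRDM14. Of 20 BMP and Id genes 4 rose, 1 of them dim in both lines, and 4 fell, with the ligand Bmp4 lower at 4.61 and 4.70 in PRDM14_DNMT3B, against 5.54 and 5.55 in PRDM14, the ligand Bmp7 higher by 1.02 and the inhibitory Smad6 lower by a log2 difference of -0.97. Of 22 WNT target genes 6 rose, 2 of them dim in both lines, and 1 fell, Tcf7l1, a repressor of WNT targets (-0.85), a call lost with any 1 of the 4 arrays left out at adjusted p of 0.0537 to 0.0942. Of 16 LIF and STAT3 genes 2 rose and 3 fell, including the co-receptor Il6st (-0.60) and Bcl3 (-0.84), the last lost without PRDM14 replicate 2, at -0.77 (adjusted p = 0.0547). Leaving out 1 of the 4 arrays gave 4 to 5 rises for Nodal genes, 2 to 3 falls for BMP genes, 2 to 5 rises for WNT targets and 0 rises and 1 to 2 falls for LIF genes.

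Cytoskeletal, matrix and surface genes moved by list. Actin and serum response factor targets fell in 9 of 31 tested and rose in 3 (median -0.21), with 5 to 7 falls when 1 of the 4 arrays was left out. Beside Acta2, Myl9, a myosin light chain, measured 2.65 and 2.54 in PRDM14_DNMT3B, against 4.90 and 4.98 in PRDM14, a log2 difference of -2.34 ± 0.10 (SE, adjusted p = 0.000594). Cnn2, a calponin, fell by 1.07, Tpm1, a tropomyosin, fell by 0.94 and Zyx, a focal adhesion protein, fell by 0.79, while Cald1, caldesmon, rose by 1.63. Of 18 Hippo and YAP targets 9 rose, 1 of them dim in both lines, and 2 fell (median 0.38), and 4 to 6 rose without 1 array. Wwtr1, which encodes the coactivator TAZ, measured 0.01 and 0.25 in PRDM14_DNMT3B, against -1.57 and -1.37 in PRDM14, and Axl, a receptor kinase, was at least 2.35-fold higher, while Tead4, their DNA-binding partner, fell by 1.06. Of 20 collagens 7 rose and none fell (median 0.55), and the median was 0.41 to 0.56 without 1 of the 4 arrays. Signal was low, with a median level of -3.65 in PRDM14, 4 of the 20 dim in both lines and 11 well above background on all 4 arrays. With normexp 4 rose and the median was 0.14, and with the deposited values it was 0.28. Col1a1 measured -2.47 and -2.56 in PRDM14_DNMT3B, against -4.38 and -4.30 in PRDM14, a log2 difference of 1.82 ± 0.09 (SE, adjusted p = 0.00067). Of 20 keratin and epithelial genes 9 rose and 1 fell (median 0.42), with 3 to 8 rises without 1 array. Krt8 measured 1.44 and 1.65 in PRDM14_DNMT3B, against 0.28 and 0.44 in PRDM14, and J1 was far above both at 5.27 and 5.29. Cldn6, a tight junction protein, measured -1.26 and -0.84 in PRDM14_DNMT3B, against -2.56 and -2.60 in PRDM14, with J1 at 1.45 and 1.42.

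MHC class I genes, which present peptides to T cells, rose in 7 of 11 tested and fell in none (median 0.79), and 6 rose with any 1 of the 4 arrays left out. Nlrc5, the transactivator of class I genes, was at least 4.46-fold higher (adjusted p = 0.00329), and Tap1, a subunit of the peptide transporter, at least 3.26-fold (adjusted p = 0.000805). Tap2, its partner, measured -1.26 and -1.57 in PRDM14_DNMT3B, against -2.74 and -2.81 in PRDM14, a log2 difference of 1.36 ± 0.15 (SE, adjusted p = 0.00346). H2-K1, a classical heavy chain, measured 0.97 and 1.05 in PRDM14_DNMT3B, against 0.18 and 0.25 in PRDM14, a log2 difference of 0.79 ± 0.08 (SE, adjusted p = 0.00287), below the 2.34 and 2.30 of J1. H2-Q7 rose by 1.03, and probes for H2 genes may read several near-identical copies. B2m, the shared light chain, rose by 0.68, and its call was lost with any 1 array left out, at adjusted p of 0.0527 to 0.0864. Of 24 interferon-inducible genes 5 rose, 1 of them dim in both lines, and 4 fell (median 0.00). Gbp3, a guanylate-binding protein, measured on 1 of the 2 PRDM14 arrays, rose by 2.01, whereas Oas1a, an antiviral oligoadenylate synthase, measured 1.80 and 1.65 in PRDM14_DNMT3B, against 3.25 and 3.29 in PRDM14, and Oasl2 was at least 1.92-fold lower. Without 1 of the 4 arrays 2 to 5 interferon-inducible genes rose and 2 fell.

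Methyl-CpG readers were the chromatin list with the highest median. Of 10 methyl-CpG binding proteins 4 rose and none fell (median 0.41), with 2 to 3 rises without 1 of the 4 arrays. Mbd2 measured 0.96 and 1.09 in PRDM14_DNMT3B, against 0.05 and 0.07 in PRDM14, a log2 difference of 0.97 ± 0.09 (SE, adjusted p = 0.00198), and Zbtb33, which encodes Kaiso, measured -0.34 and -0.12 in PRDM14_DNMT3B, against -1.34 and -1.21 in PRDM14, a log2 difference of 1.05 ± 0.14 (SE, adjusted p = 0.00628). Zbtb4 was among the 4, but a second probe read -1.05 and did not pass, and over both the difference was -0.09. Its call gave adjusted p of 0.0413 to 0.15 with 1 of the 4 arrays left out. In the TET and base excision repair list, 3 of 21 genes rose and 3 fell, with Neil2, a DNA glycosylase, at 1.43 and 1.39 in PRDM14_DNMT3B, against 0.07 and 0.07 in PRDM14. That list gave 1 to 2 rises and 0 falls without 1 of the 4 arrays. Tet1, which oxidises 5-methylcytosine, differed by -0.01 (adjusted p = 0.929). Of 25 Polycomb genes 2 rose and 1 fell, of 22 genes of H3K9 methylation 1 rose, Kdm4b (0.87), and 1 fell, Cbx1, whose second probe read 0.56 higher. Of 17 telomere genes 1 rose and 1 fell, and of 9 Prdm genes 2 rose and 2 fell, with Prdm14 among the falls. Without 1 of the 4 arrays 0 to 1 Polycomb genes rose and 0 Prdm genes rose, and the telomere list had 0 to 1 rises and 0 falls. Among 25 ribosomal protein genes none was called in this fit, where the differences ran from -0.18 to 0.26 and none was called with any 1 of the 4 arrays left out or with the replicate number as a block. Of 15 housekeeping genes 3 rose and none fell, with 1 rise without 1 of the 4 arrays.

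Markers of other cell types gave mixed calls, at median levels below that of the core pluripotency genes. Of 23 primitive endoderm genes 8 rose and 2 fell (median 0.47), with 3 to 5 rises without 1 of the 4 arrays, and 5 were dim in both lines. Of 19 trophoblast genes 4 rose and 5 fell, of 13 mesoderm genes 4 rose and 1 fell, and of 14 neural genes 3 rose and 2 fell. Without 1 of the 4 arrays 2 to 4 trophoblast genes rose and 3 fell, 0 to 2 mesoderm genes rose, and 2 to 3 neural genes rose and 1 fell. Of 19 fibroblast and matrix genes 4 rose, 1 of them dim in both lines, and 2 fell, of 12 endothelial and blood genes 3 rose and 1 fell, and of 7 muscle and heart genes 2 fell. These became 2 to 4 rises for fibroblast genes, 1 to 2 rises for endothelial and blood genes and 1 fall for muscle and heart genes without 1 of the 4 arrays. Lama1, a laminin chain of primitive endoderm, measured 2.93 and 3.13 in PRDM14_DNMT3B, against 2.10 and 2.16 in PRDM14. Sox11, a neural factor, measured -2.02 and -1.96 in PRDM14_DNMT3B, against -3.59 and -3.75 in PRDM14. Members of the same lists fell, with Pax6, on the neural list, at -3.04 and -3.13 in PRDM14_DNMT3B, against -1.91 and -1.89 in PRDM14. Hand1, on the trophoblast and mesoderm lists, had a log2 difference of -1.49. For Amn, on the primitive endoderm list, it was -1.31, a call lost without either PRDM14 array. Some genes stand on more than 1 list, such as Krt7 and Krt8 on the trophoblast and keratin lists. Median levels in PRDM14_DNMT3B and PRDM14 were -2.79 and -3.18 for primitive endoderm and 5.72 and 5.81 for core pluripotency genes. For trophoblast genes they were -0.86 and -0.86, and 17 of the 19 were well above background on all 4 arrays. The part of other cell types in the results was not tested.

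By position, each chromosome's median difference lay within 0.05 of the median over the autosomes, though 2 Y-linked genes fell deeply. Of 38 tested genes assigned to the Y chromosome, any on its unplaced segments included, 7 fell and none rose, where 11% of all genes were lower. The median of those 38 was -0.05, against -0.17 with quantile normalization and -0.16 with the deposited values. Of the 5 tested genes on the Y-linked list 3 were dim in both lines, and the other 2, Eif2s3y and Ddx3y, fell. Eif2s3y read -4.42 and -5.11 in PRDM14_DNMT3B, against 0.30 and 0.53 in PRDM14, and J1 was at 3.62 and 3.94. Ddx3y, a Y-linked RNA helicase, was at least 4.31-fold lower (adjusted p = 0.000441) and was not well above background on either PRDM14_DNMT3B array, with 1.63 and 1.63 in J1. Uty, a Y-linked demethylase gene, was dim in both lines and stood at -1.87 and -1.73 in J1.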

How the data were processed

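Per the file headers, each array was scanned and quantified with Agilent Feature Extraction on 1 colour (Cy3), with probe coordinates in mm9; the submitters' processing notes name version 10.7.3.1 and limma. The deposited scanner intensity values (gProcessedSignal) are background-subtracted and not normalized between arrays. The deposited table of log2 values was used as an alternative: its columns share 1 distribution, and how they were scaled and centred is not stated (column medians 4.24).

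Intensities were scaled to each array's 75th percentile and put on the log2 scale. Control spots were left out, spots of a probe averaged without outlier flags, and 33113 probes kept, each well above background throughout 1 or more of the 6 groups. Where a gene had several probes, the one with the highest mean stood for it, which left 23807 genes after 11 with missing values were dropped. Of 22232 RefSeq accessions, 20869 matched the current table and 2213 symbols were updated. Groups were tested with limma 3.58.1 in R 4.3.3 (lmFit, eBayes, 10 arrays, 4 residual degrees of freedom) with Benjamini-Hochberg adjustment over all genes. On simulated data for this comparison with 23807 genes, 46% of changes of 1 log2 unit and 75% of changes of 2 were recovered. That simulation held 100 changed genes of each size and drew each gene independently. Far fewer genes changed there than were called here, so these shares do not give the power of this comparison. Alternatives covered background correction, normalization, filters, probe choice, the samples in the fit, blocks and each replicate left out.

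Named genes were the methyltransferases and Prdm14, the 15 largest rises and falls measured on all 4 arrays, the 6 largest bounds each way, and up to 4 called members per list. Others, chosen after their values were seen, were Pou5f1, Sox2, Trp53, Zscan4c, Klf4, Esrrb, Uty, Tet1, Tex14, Dazl, Stag3, Tex15, Ddx4, Rhox4a, Rhox8, Rhox13, Zdbf2, Hoxd11, Perp, Mdm2, Ccng1, Bbc3, Pmaip1, Apaf1, Jun, Dusp2, Pfkl, Gapdh, Srebf2, Tfap2c, Otx2, Fgf5, Sox3, Tpm1, Zyx, Tead4 and H2-K1. The comparison, the lists and their members were chosen with earlier results of these data known. A gene of the cholesterol list that did not pass is counted, but is not named or labelled and is left out of the plot of list members.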

Additional observations from a re-analysis of the deposited data

How the results depend on the processing

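The counts of called genes stayed within 1.5 times of 4949 under quantile normalization (4997), normexp background correction (4666), the deposited values (5016), the 4 arrays alone (3794), slide as a random block (4756), the mean over probes (4959) and a trended robust prior (5981). With no filter on dim probes 2993 were called, 1495 higher and 1498 lower. The count beyond 2-fold was 476 with normexp and 899 with genes above background on all 10 arrays. Leaving out each replicate in turn gave 1909 to 4700 called genes, 1015 to 2252 higher, 894 to 2448 lower and 1119 to 1527 beyond 2-fold; fewer arrays enter these fits, and a lone array is assumed to vary like the other groups. List medians beyond 0.3 numbered 19, against 10 with normexp and 16 to 21 with replicates left out. Chromosome medians beyond 0.1 numbered 0, against 1 with quantile normalization, 1 with the deposited values, 1 with genes above background on at least 1 of the 4 arrays (a filter chosen after seeing the data) and 0 to 1 with replicates left out; the causes were not tested. A second filter chosen after seeing the data, genes above background on all 4 arrays, gave 5087 called genes. The mean over probes reversed Cdkn1a (-0.10), Hspa4 (0.29) and Zbtb4 (-0.089), whose probes disagree.

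No label pairs the replicate numbers. Replicates 1 and 2 of PRDM14_DNMT3B, J1 and Dnmt3b-/- lie on slides 1 and 2, but those of PRDM14 on slides 3 and 4, so the numbers mark no slide shared by both lines compared. Replicate differences correlated at 0.260 between the 2 lines, and at 0.260 to 0.507 over all pairs of replicated groups, and with the number as a replicate block 7017 genes (29.5%) were called. The planned check of CpG content was not run beyond 2-fold, since too few genes had a window. Array number limits the precision, and genes near background have only bounds.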
